A study of Mus musculus with 6 samples.

Results

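Broad H3K4me3 peaks at gene ends were examined in B16 cells, a mouse melanoma line. Members were chosen by the measured width of the peak, 2000 bp or more, and by its place, no more than 1 kb from the start or the other end of a protein-coding gene. Of 27019 H3K4me3 peaks on chromosomes 1 to 19, X and Y, 399 met both conditions (1.48%). They were 3.42% of the 11673 gene-end peaks and held 7.72% of the bases those peaks covered. Their widths, which chose them, are given as a description and not as a result.

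H3K4me3 is trimethylated lysine 4 of histone H3. COMPASS and MLL methyltransferase complexes write it at transcription start sites, and it marks the promoters of active genes. Most promoters carry it on the few nucleosomes around the start, while a minority carry a wider domain that runs into the gene. In other cell types the widest domains have been described at genes of cell identity and at tumour suppressor genes. The histone acetyltransferase p300, encoded by Ep300, is recruited by transcription factors to active promoters and enhancers.

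Both libraries used were made by CUT&Tag from cells titled as wild type (WT), 1 with an antibody to H3K4me3 and 1 with an antibody to p300. In CUT&Tag an antibody brings a Tn5 transposase to its target in intact cells, and the DNA nearby is cut and tagged. The series holds 4 further libraries for H3K9me3 in WT, TdgKO, Trp53KO and TdgTrp53DKO cells, not analysed here, and genotypes were therefore not set against each other. With 1 library for each protein there is no replicate spread, no p-value was computed, and no difference below was tested. Intervals beside shares are exact 95% binomial intervals over peaks or genes and cover counting error only. In a bulk library, a wide domain in some cells and one in every cell cannot be told apart.

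As a check of the cell type, H3K4me3 lay at an end of 10 of 14 melanocyte markers, among them Mitf, Sox10, Tyr and Pmel. It lay at an end of 0 of 6 epithelial, 1 of 6 lymphocyte, 1 of 6 myeloid, 1 of 6 hepatocyte and 1 of 6 germline markers, of 2 of 6 stromal and 2 of 6 muscle markers, and of 4 of 6 neural markers. Over all 21887 protein-coding genes 50.5% had H3K4me3 at an end, a level that the melanocyte and neural lists exceeded by only a few genes. None of the markers in these lists had a broad peak. Tdg had a gene-end peak of 1641 bp, below the limit, the widest gene-end peaks of Ep300 and Mdm2 were 813 and 703 bp, and Cdkn1a had none within 1 kb of an end. Trp53 was the only one of these 5 genes with a broad peak.

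Sequences upstream of genes with a broad peak are given first, because the promoters under these peaks differed widely in CpG content. The 250 bases before an annotated start are shown 5′ to 3′ in the direction of transcription, with CpG dinucleotides in capitals, from the RefSeq table of GRCm38.p6. They run from CpG-rich to CpG-poor and come from Opa3 (a mitochondrial membrane protein; chr7:19228139-19228388, plus strand), Cdkn1b (the cell cycle inhibitor p27; chr6:134920151-134920400, plus strand), Mlph (melanophilin, which links melanosomes to myosin; chr1:90914850-90915099, plus strand), Trp53 (p53; chr11:69580109-69580358, plus strand), Gpnmb (a glycoprotein of melanosomes and lysosomes; chr6:49036268-49036517, plus strand) and Myo7a (an unconventional myosin; chr7:98119494-98119743, minus strand).
Opa3: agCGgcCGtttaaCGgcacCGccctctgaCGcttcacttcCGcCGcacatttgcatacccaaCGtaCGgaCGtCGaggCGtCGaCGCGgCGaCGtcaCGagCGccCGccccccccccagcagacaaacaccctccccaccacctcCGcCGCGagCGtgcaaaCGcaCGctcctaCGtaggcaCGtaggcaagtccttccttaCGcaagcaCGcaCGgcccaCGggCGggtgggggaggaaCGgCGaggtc
Cdkn1b: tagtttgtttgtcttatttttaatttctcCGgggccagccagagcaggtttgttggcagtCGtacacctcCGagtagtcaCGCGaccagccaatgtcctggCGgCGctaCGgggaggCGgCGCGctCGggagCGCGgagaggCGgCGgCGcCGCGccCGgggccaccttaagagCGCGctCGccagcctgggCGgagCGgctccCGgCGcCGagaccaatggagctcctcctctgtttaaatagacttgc
Mlph: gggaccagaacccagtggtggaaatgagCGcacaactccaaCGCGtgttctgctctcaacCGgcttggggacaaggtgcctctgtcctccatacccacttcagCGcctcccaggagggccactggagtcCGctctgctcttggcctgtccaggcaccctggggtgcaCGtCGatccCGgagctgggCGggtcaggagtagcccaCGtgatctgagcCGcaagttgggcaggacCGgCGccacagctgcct
Trp53: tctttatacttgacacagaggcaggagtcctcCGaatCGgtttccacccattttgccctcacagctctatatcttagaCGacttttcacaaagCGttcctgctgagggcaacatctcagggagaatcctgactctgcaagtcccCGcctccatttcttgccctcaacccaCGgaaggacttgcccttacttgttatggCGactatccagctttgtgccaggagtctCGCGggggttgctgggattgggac
Gpnmb: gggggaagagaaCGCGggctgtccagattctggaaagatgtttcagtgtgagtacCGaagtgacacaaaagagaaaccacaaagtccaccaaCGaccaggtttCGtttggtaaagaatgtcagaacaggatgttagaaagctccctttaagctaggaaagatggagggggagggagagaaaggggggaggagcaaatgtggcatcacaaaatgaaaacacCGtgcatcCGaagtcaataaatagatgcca
Myo7a: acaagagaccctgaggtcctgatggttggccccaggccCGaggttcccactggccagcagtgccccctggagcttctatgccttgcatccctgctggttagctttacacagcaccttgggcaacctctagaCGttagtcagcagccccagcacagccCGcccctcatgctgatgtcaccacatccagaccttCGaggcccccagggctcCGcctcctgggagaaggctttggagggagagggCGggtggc
These stretches hold 35 CpG at Opa3, 28 at Cdkn1b, 14 at Mlph, 9 at Trp53, 7 at Gpnmb and 6 at Myo7a. Every one of the 6 starts lay inside a broad peak, of 2193, 2598, 3269, 2817, 2260 and 3608 bp in the same order, so broad peaks were found over both CpG-poor and CpG-rich promoters. At Myo7a, however, the H3K4me3 summit lay 2259 bp downstream of the start, away from the promoter shown.

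The widest peaks stood at genes of varied function. The median width was 2213 bp (quartiles 2076 and 2410), 325 of the 399 were under 2500 bp, and 22 reached 3000 bp. The widest peak, of 5033 bp, lay on chromosome 11 from 117778834 to 117783866 over the starts of Tmc6 and Tmc8, neighbouring genes for transmembrane channel-like proteins whose starts lay 1605 bp apart. The next, of 4678 bp, lay on chromosome 9 from 107981910 to 107986587 and held the whole of Inka1 (an inhibitor of PAK4) and an end of Uba7 (the activating enzyme for ISG15). Then came Myo7a at 3608 bp, Slc35e4 at 3594 bp, and Gapdh, a glycolysis enzyme, with its neighbour Ncapd2, a condensin subunit, at 3535 bp.

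The other peaks among the 15 widest, from 3478 to 3156 bp, were at Sphk1 (a sphingosine kinase), Bhlhe40 (a transcriptional repressor of the circadian clock), Hspb2, Mfsd5, Parp3 with Rrp9, Mlph, Kirrel, Gpr108, Cdk6 (a G1 cyclin-dependent kinase) and Copz2. At the limit, the members just inside were those of Caskin2 with Tsen54 (2000 bp), Nr1d1 (2000 bp) and Vdac1 (2001 bp). The peaks just outside were those of Mgat5 (1999 bp), Mcrs1 (1998 bp) and Usp32 with a neighbouring gene (1998 bp). The inside peaks had folds of 5.66, 5.48 and 5.53, and the outside peaks 5.69, 7.63 and 6.46.

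**Figure D1:**
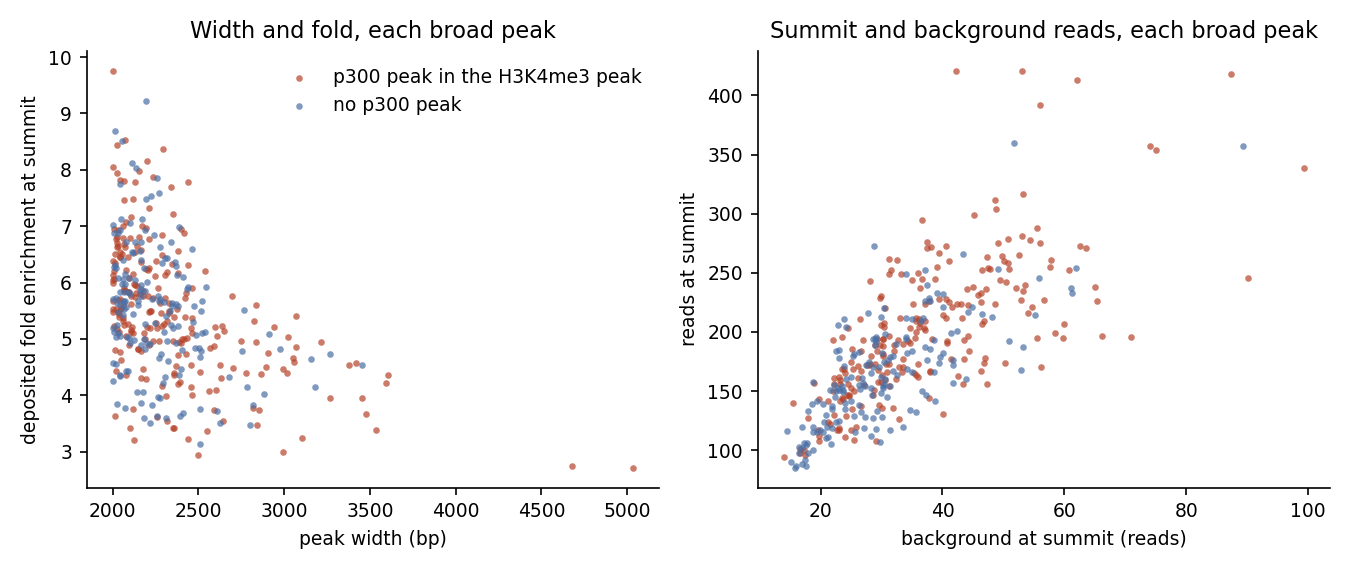
Each of the 399 broad gene-end peaks is a point, with a p300 peak in it (red) or without (blue). The left panel plots deposited fold enrichment against width in bp, and the right panel plots reads at the summit against background reads. The widest peak, at 5033 bp, had the lowest fold, 2.71.

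Broad peaks had more reads at the summit but a lower fold than narrower gene-end peaks. The fold is the authors' deposited ratio of the summit to a background, and the number of reads behind it was solved from the deposited fold and −log10 p. The broad peaks had a median of 179 reads at the summit (quartiles 148.5 and 220.5), against 115 (78 and 159) in the 11274 narrower gene-end peaks. Their median background was 31.3 reads, against 16.2. The median fold was 5.48 (4.73 and 6.22) in the broad peaks and 6.79 (5.11 and 8.63) in the narrower ones. Of the 399, 359 had more summit reads than the median gene-end peak and 341 had a fold under the median. These values come from the same library that defined the width, so they describe the peaks and support nothing further.

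The median fold was highest in a width class below the limit, and lower in each wider class. Across the narrower gene-end peaks the Spearman correlation of width with fold was 0.34, and with summit reads 0.57. Across the 399 broad peaks it was -0.45 with fold, 0.15 with summit reads and 0.41 with background reads. By width class, the median fold was 4.51 under 500 bp, 6.66 from 500 to under 1000 bp, 7.92 from there to under 1500 bp, 6.90 from there to under 2000 bp, 5.66 from there to under 2500 bp, 4.60 from there to under 3000 bp and 4.46 from 3000 bp up. The median summit reads in the same classes were 64, 102, 139, 158, 174, 185 and 220.0. These correlations are across peaks of 1 library, which share its depth, and have no p-value.

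The extremes of the fold show this at single genes. The lowest folds after Tmc6 with Tmc8 (2.71, 246 reads over a background of 90.1) and Inka1 with Uba7 (2.74, 196 over 71.0) were at Ptbp1, a splicing repressor (2.95, 197 over 66.2), Pcnx3 (2.99, 170 over 56.2) and Lsm7 with Sppl2b (3.13, with 168 reads). The highest was at Cycs, which encodes cytochrome c (9.76, 421 reads over 42.2), followed by Daam1, a formin that acts in Wnt signalling (9.22, 273 over 28.7). The other 8 of the 10 highest, from 8.68 to 8.06, were at Ammecr1l, Morc2a (an ATPase of HUSH silencing), Noa1 with Polr2b (the second largest RNA polymerase II subunit), Bola1, M6pr, Cnot4, Glul (glutamine synthetase) and Rnf4 (a SUMO-targeted ubiquitin ligase). Summit reads ranged from 85 at Lrrk1 to 421 at Cycs and at Akap8 with Akap8l. Peaks with nearly equal reads had very different folds: M6pr had 243 summit reads over a background of 28.1 and a fold of 8.38, and the Tmc6 with Tmc8 peak 246 reads over 90.1 and 2.71.

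Broad peaks held p300 more often than narrower gene-end peaks. A p300 peak overlapped 232 of the 399 by at least 1 bp, a share of 58.1% (53.1 to 63.0%), against 20.4% (19.6 to 21.1%) of narrower gene-end peaks and 21.6% of all gene-end peaks. Wide peaks meet another peak more easily, so the share was also taken within 500 bp of the H3K4me3 summit. That window does not grow with the width of the H3K4me3 peak, but any p300 peak touching it counts. The p300 peaks had a median width of 762.5 bp in broad peaks and 611.5 bp in narrower gene-end peaks. By that measure it was 52.4% (47.4 to 57.4%) in broad peaks and 20.7% (19.9 to 21.5%) in narrower ones, with 21.8% over all gene-end peaks. With p300 required over the summit base itself the share of broad peaks was 39.6% (34.8 to 44.6%). When each peak list was limited to the 50% of peaks with the highest −log10 q, p300 overlapped 32.0% (27.4 to 36.9%) of broad peaks. Neither of these stricter shares was taken for narrower gene-end peaks, so they cannot show whether the difference from narrower peaks remains. Broad peaks away from gene ends, 204 in number, held p300 in 70.1% (63.3 to 76.3%). Of the 399, 228 had 1 p300 peak, 4 had 2, and none had more. The 4 were at Tmc6 with Tmc8, Pde12, Prrt1 and Scrn1, named after their values were seen.

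The share with p300 was already higher in each wider class below 2000 bp. Within 500 bp of the summit it was 7.55% for gene-end peaks under 500 bp, 13.8% from 500 to under 1000 bp, 26.9% from there to under 1500 bp, 39.9% from there to under 2000 bp and 51.7% from there to under 2500 bp. It was 50.0% for the 52 peaks from 2500 to under 3000 bp and 68.2% (45.1 to 86.1%) for the 22 widest.

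**Figure D2:**
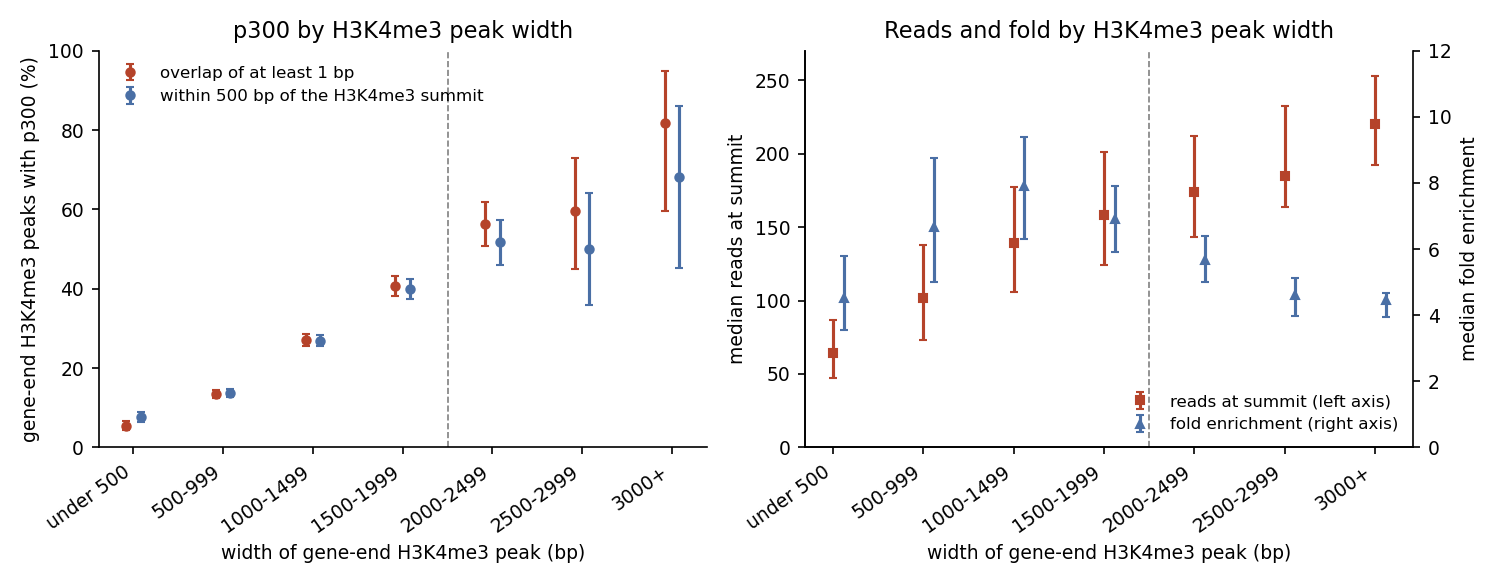
The left panel shows the percentage of gene-end H3K4me3 peaks with p300 by peak width, as overlap (red) and within 500 bp of the summit (blue), with exact 95% binomial intervals. The right panel shows median reads at the summit (red, left axis) and median fold (blue, right axis) with quartiles, and the dashed line is the 2000 bp limit. The share with p300 near the summit runs from 7.55% to 68.2%, while the fold is highest, at 7.92, from 1000 to under 1500 bp.

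Summit reads moved with the p300 share as well, so shares were compared within classes of summit reads, which were chosen after the values had been seen. Among peaks with 150 to under 200 reads, p300 lay near the summit in 50.3% (42.3 to 58.3%) of 159 broad peaks, 36.5% (34.0 to 39.0%) of 1473 peaks of 1 to 2 kb and 23.9% (20.6 to 27.4%) of 633 peaks under 1 kb. With 200 to under 250 reads the shares were 63.6% (52.7 to 73.6%), 51.4% (47.6 to 55.2%) and 45.0% (37.7 to 52.4%) in that order. With 250 reads or more they were 82.4% (69.1 to 91.6%), 72.1% (66.6 to 77.2%) and 54.0% (39.3 to 68.2%). The broad peaks had the highest share in all 5 classes, though only 11 of them had under 100 reads. Their share in that class was 27.3% (6.02 to 61.0%). Their intervals overlapped those of the 1 to 2 kb peaks in every class except 150 to under 200 reads.

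**Figure D3:**
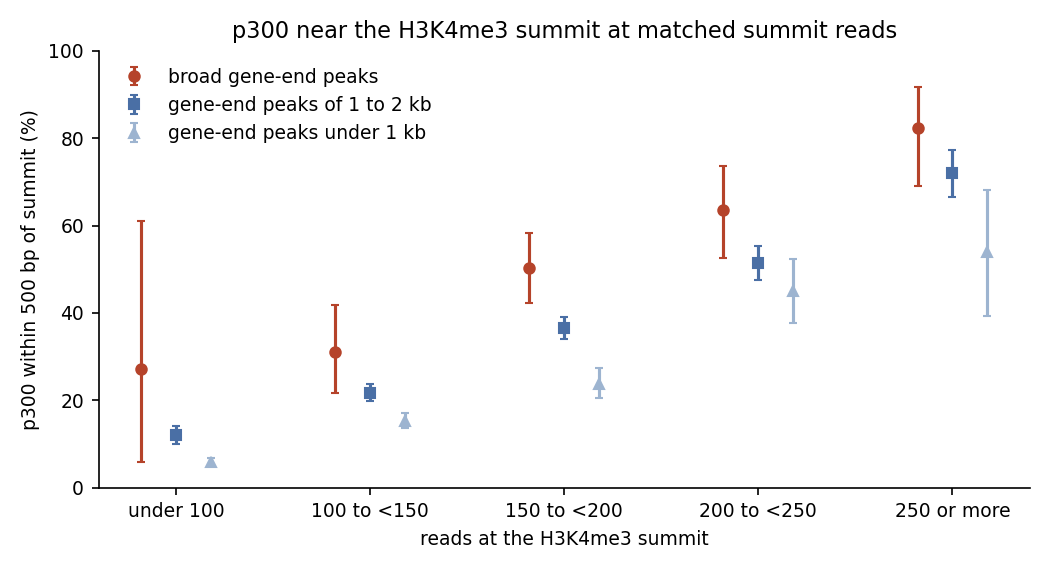
The percentage of peaks with p300 within 500 bp of the H3K4me3 summit is plotted for 5 classes of summit reads, for broad gene-end peaks (red), gene-end peaks of 1 to 2 kb (dark blue) and under 1 kb (light blue), with exact 95% binomial intervals. At 150 to under 200 reads the shares are 50.3%, 36.5% and 23.9%.

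The p300 peaks inside broad H3K4me3 peaks showed the same pairing of more reads with a lower fold. Taking the strongest p300 peak of each H3K4me3 peak, the median was 44.5 reads at the p300 summit in broad peaks and 36 in narrower gene-end peaks, over backgrounds of 8.11 and 5.46 reads. The median p300 fold was 5.20 in broad peaks, against 5.80 in narrower ones. The distance between the p300 and the H3K4me3 summit had a median of 278 bp (quartiles 126 and 532) in broad peaks, against 185 bp in peaks of 1 to 2 kb. Only overlapping p300 peaks were counted, so this distance can grow with the width that chose the broad peaks. Per kb of H3K4me3, p300 peaks numbered 0.255 in broad peaks and 0.208 in narrower gene-end peaks. They numbered 0.228 in gene-end peaks of 1 to 2 kb and 0.247 over all H3K4me3 peaks.

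The highest p300 −log10 q values within broad peaks were at Txn1, which encodes thioredoxin (203), Bhlhe40 (161), Gpnmb (156) and Cltc, the clathrin heavy chain (156). At Txn1 the p300 peak had 329 reads and a fold of 10.1, at Bhlhe40 317 reads and 7.70, at Gpnmb 380 reads and 5.92, and at Cltc 272 reads and 9.02. Mtmr4 with Septin4, Opa3, Stx4a (a plasma membrane syntaxin), Cdca3 with Usp5, Ddit3 (the stress factor CHOP) with Mbd6, and Hsp90b1 (an endoplasmic reticulum chaperone) with Ttc41 made up the rest of the first 10, with values from 93.1 to 64.7. Broad peaks with and without p300 had nearly equal median widths, 2216 and 2197 bp, and folds, 5.43 and 5.53. Their median summit reads were 194 with p300 and 160.0 without.

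Most broad peaks held an annotated start, at a share close to that of gene-end peaks of 1 to 2 kb. Those with starts of 1 gene mostly reached further into the gene than upstream of it. The start table covers 17492 of 21887 protein-coding genes, and 301 of the 399 peaks (75.4%) held a listed start. So did 72.1% of gene-end peaks of 1 to 2 kb and 52.5% of all gene-end peaks, and wide peaks hold a start more easily. Within 1 kb of the summit, a listed start lay at 71.4% of broad peaks. By that measure it was 76.7% of those of 1 to 2 kb and 72.4% of all gene-end peaks. Of the 98 broad peaks without a listed start inside, 60 reached only genes without a listed start, and at 16 every listed start lay over 1 kb from the peak. For the 233 peaks that held the start or starts of 1 gene, the peak reached a median of 815 bp upstream (quartiles 498 and 1105) and 1431 bp downstream (1120 and 1724) of the first start. It reached further downstream in 177 of them, 76.0% (70.0 to 81.3%). In the 3279 gene-end peaks of 1 to 2 kb with starts of 1 gene, the medians were 464 and 868 bp and the share was 79.0% (77.5 to 80.3%). Upstream and downstream reach make up the width that chose the broad peaks, so their longer reach follows from the rule and is a description. The share reaching further downstream was close to that of the peaks of 1 to 2 kb.

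**Figure D4:**
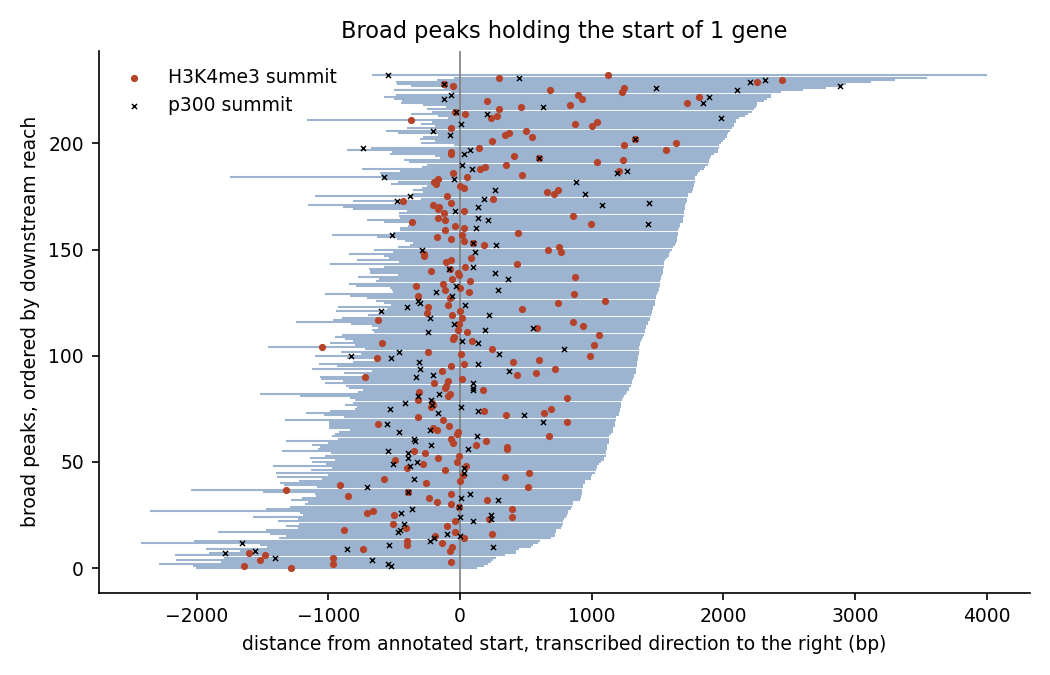
Each line is 1 of 233 broad peaks holding the start of 1 gene, drawn from its upstream to its downstream end in bp from the start, with the H3K4me3 summit (red) and the p300 summit (black cross). The median peak runs from 815 bp upstream to 1431 bp downstream. With upstream positions negative, the H3K4me3 summits have quartiles of -176 and 413 bp and the p300 summits of -366 and 211 bp.

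The median summit lay close to the start. The spread of H3K4me3 summits was wider than in gene-end peaks of 1 to 2 kb. As the start lies inside these peaks, the possible distance grows with the width that chose them, so the spread is a description only. With positions upstream of the start written as negative, the H3K4me3 summit lay at a median of -10.0 bp (quartiles -176 and 413). The p300 summit lay at -34 bp (-366 and 211) in the 141 of these peaks that had one. In the peaks of 1 to 2 kb the H3K4me3 summit lay at a median of 37 bp (-93 and 258). At Mlph the H3K4me3 summit was 21 bp from a gene end, at Trp53 30 bp and at Atf4, the transcription factor of the integrated stress response, 8 bp. At Myo7a it lay 2288 bp from the nearest gene end, inside the gene. The H3K4me3 summit lay downstream of the start in 47.6% (41.1 to 54.3%) of the broad peaks and 57.5% (55.8 to 59.2%) of the peaks of 1 to 2 kb.

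Some broad peaks lay at annotated ends, starts or 3′ ends, of more than 1 gene. Of the 399, 123 reached ends of 2 genes, 10 of 3 and 1 of 4, together 33.6% (29.0 to 38.5%), against 16.1% (15.4 to 16.8%) of narrower gene-end peaks and 16.7% of all gene-end peaks. With gene ends limited to annotated starts, 369 broad peaks qualified, and 20.6% (16.6 to 25.1%) of those 369 lay at 2 or more genes. Starts of 2 or more genes lay inside 68 of the 399 (17.0%, 13.5 to 21.1%), against 5.39% (4.98 to 5.83%) of narrower gene-end peaks. Wide peaks reach more ends. Counted within 1 kb of the summit, the shares were 25.8% (21.6 to 30.4%) of broad and 13.0% (12.4 to 13.7%) of narrower peaks. Gene-end peaks of 1 to 2 kb lay between, with 17.2% (16.2 to 18.3%) by that measure. Of them 20.8% reached ends of 2 or more genes, and 9.83% held starts of 2 or more genes. The peak at 4 genes, of 2781 bp on chromosome 17, reached Eme2 (a subunit of a structure-specific nuclease), Mapk8ip3 (a JNK scaffold), Mrps34 (a mitochondrial ribosomal protein) and Nme3 (a nucleoside diphosphate kinase), and held no p300.

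Starts read away from each other lay under 65 broad peaks, 16.3% (12.8 to 20.3%). The shares were 4.74% (4.35 to 5.14%) of narrower gene-end peaks and 8.70% (7.96 to 9.50%) of those of 1 to 2 kb. The median distance between these starts was 284 bp under broad peaks and 132.5 bp under narrower ones. At Trp53 and Wrap53, which encodes a telomerase and p53 regulator, they were 109 bp apart under a peak of 2817 bp. At Parp3 and Rrp9, a polymerase of ADP-ribose and a protein of ribosomal RNA processing, they were 360.0 bp apart under 3380 bp. Within 500 bp of the summit, starts on both strands lay at 9.52% (6.83 to 12.8%) of broad peaks. The shares were 5.25% (4.85 to 5.68%) of narrower gene-end peaks and 8.65% (7.90 to 9.44%) of those of 1 to 2 kb. The intervals of the broad and the 1 to 2 kb peaks overlap.

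The genes reached had a shorter median length than other marked genes. The 399 peaks reached 542 genes, of a median length of 12501.5 bp, against 22617 bp for the other genes with H3K4me3 at an end. Within 50 kb of the summit lay a median of 4 protein-coding genes (quartiles 2 and 6) for broad peaks. For narrower gene-end peaks the median was 3 (2 and 5), so the ranges nearly coincide. In all, 16 genes lay whole inside a broad peak. The longest of these was Mfsd5, of 2289 bp, and Inka1, Gadd45g (a stress-induced growth arrest gene), Mt2 (metallothionein), Mif (a cytokine), Gpx1 (glutathione peroxidase) and the histone gene H4c14 were among them. For such genes the peak cannot be divided between the start and the 3′ end.

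By chromosome, broad peaks made up between 0.912% of gene-end peaks on X (3 of 329) and 5.81% on chromosome 15 (28 of 482), leaving aside Y, which had 1 gene-end peak and 0 broad ones. Chromosome 6 had 33 of 603 (5.47%), with Gapdh, Gpnmb, Bhlhe40 and Hk2, and chromosome 11 the most, 50 of 981 (5.10%). The median summit of all gene-end peaks held 64 reads on X, 172 on chromosome 6, 129.5 on chromosome 15, 139 on chromosome 11 and 117 over all. The part of these read levels in the shares was not tested.

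Promoters under broad peaks had nearly the base composition of other marked promoters. Over 440 listed promoters of 300 bases, from 250 before to 50 after the start, the median GC content was 62.2% and the median ratio of observed to expected CpG 0.80 (quartiles 0.63 and 0.94). Under gene-end peaks of 1 to 2 kb, over 4853 promoters, they were 61.0% and 0.79 (0.65 and 0.91). Promoters in no H3K4me3 peak, 12725 in number, had 51.7% and 0.30. In the promoters shown above the ratio was 1.18 at Opa3, 1.04 at Cdkn1b, 0.59 at Gpnmb, 0.49 at Trp53 and Mlph and 0.21 at Myo7a.

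Short motifs were searched on both strands of the same 300 bases. The GC box GGGCGG was in 66.1% (61.5 to 70.6%) of promoters under broad peaks, 66.6% under narrower gene-end peaks and 46.2% of all promoters. The CCAAT box CCAAT was in 39.1%, 42.5% and 38.2% in that order, and TATAAA in 4.09%, 6.13% and 12.6%. The E-box CACGTG, bound by MITF, MYC and related factors, was in 13.2% (10.2 to 16.7%) of promoters under broad peaks, 10.9% (10.2 to 11.6%) under narrower ones and 7.84% of all. Mlph, Trp53 and Cdk6 had it. The AP-1 site TGACTCA was in 12 promoters under broad peaks (2.73%), those of Gpnmb and Mt2 among them, against 2.96% under narrower peaks and 4.66% of all. The M-box core CATGTG was in 6.82% under broad peaks, 7.61% under narrower ones and 11.5% of all. No motif contains another, though neighbouring matches can share bases. A match of letters is not a binding site.

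Among the gene lists, 38 distinct genes had a broad peak. Of all 11045 genes with H3K4me3 at an end, 542 had one, 4.91%, and 2.48% of all protein-coding genes did. The stress response list had 7 of its 27 marked genes with a broad peak (25.9%, 11.1 to 46.3%) and the glycolysis list 4 of 18 (22.2%, 6.41 to 47.6%). For both the interval lay above 4.91%. For each other list with marked genes it contained that level, and the epithelial list had no marked gene. As 31 lists were looked at and none was tested, no list is called particular to broad peaks.

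The stress genes were Trib1 (a pseudokinase, 2427 bp), Hsp90ab1 (a cytosolic chaperone, 2358 bp), Dnajb1 (an HSP40 co-chaperone, 2327 bp), Ddit3 (2315 bp), Atf4 (2111 bp), Ddit4 (an inhibitor of mTORC1, 2078 bp) and Hsf1 (the heat shock factor, 2059 bp). Each of these 7 peaks held a p300 peak, of folds from 4.46 at Atf4 to 5.87 at Dnajb1. Over all broad peaks the share with p300 was 58.1%, and the difference was not tested. The start of Dnajb1, Ddit3, Atf4 and Ddit4 lay in its peak, while Trib1, Hsp90ab1 and Hsf1 have no start in the table. Ddit3 shared its peak with Mbd6, and Hsf1 with Bop1.

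The glycolysis genes were Gapdh (3535 bp), Hk2, the hexokinase of many tumours (2837 bp), Pgam1, a phosphoglycerate mutase (2435 bp), and Pfkp, a phosphofructokinase (2166 bp). Their own starts lay in their peaks. The peak of Pfkp held no p300, and those of Gapdh, Hk2 and Pgam1 held p300 of fold 3.94, 5.76 and 4.13. At Gapdh the H3K4me3 summit had 339 reads over a background of 99.3.

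Of 20 marked pigment cell genes 2 had a broad peak, Mlph (3269 bp, fold 3.95) and Gpnmb (2260 bp, fold 3.62), both with p300. The lineage factors did not reach the limit. Mitf had a widest gene-end peak of 1054 bp with 228 summit reads, and Sox10 one of 1493 bp, also with 228 reads but a fold of 2.01 where Mitf had 8.16. The widest gene-end peaks of the melanin genes Tyr, Tyrp1, Dct and Pmel were 927, 605, 721 and 973 bp. Of 27 marked p53 target genes, 0 had a broad peak, a share whose exact 95% interval reaches up to 12.8%. Their widest peak was that of Aen, an apoptosis nuclease, at 1947 bp.

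Tumour suppressor genes with a broad peak were Trp53, Cdkn1b (2598 bp) and Bap1, a deubiquitinase (2004 bp), 3 of 35. Bap1 shared its peak with Phf7. At Trp53 the peak ran on chromosome 11 from 69578807 to 69581623 with 163 summit reads over a background of 42.5, and its p300 peak had 34 reads. Cell cycle genes with one were Cdk6, Cdkn1b and Plk1, a mitotic kinase, 3 of 26. At Cdk6 (3179 bp) and Plk1 (2366 bp) there was no p300. Birc5, which encodes survivin (2003 bp), and Bad, a BH3-only protein (2317 bp), were 2 of 17 apoptosis genes. Fen1, the flap endonuclease (2156 bp), and Uhrf1, a cofactor of maintenance DNA methylation (2066 bp), were 2 of 22 genes of excision repair and DNA methylation.

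The remaining lists had 0 to 2 broad genes each. Kdm6b, a demethylase of H3K27 (2548 bp), and Kdm5a, a demethylase of H3K4 (2237 bp), were 2 of 29 histone methylation genes. The splicing factor genes U2af2 and Srsf7 were 2 of 32, and the ribosomal protein genes Rps3 and Rps18 2 of 35. The lists with 1 broad gene named Jun (a subunit of AP-1, 2780 bp), Smarcd1 (a SWI/SNF subunit, 2590 bp), Wwtr1 (the co-activator TAZ, 2437 bp), Mxd3 (an antagonist of MYC, 2357 bp), Fzd7 (a Wnt receptor, 2264 bp), Mrpl12, Spry4 (a feedback inhibitor of MAPK signalling) and Irf3 (an interferon regulatory factor). The peaks of Smarcd1, Mxd3 and Fzd7 did not hold the gene's own listed start. Kdm6b, Kdm5a, U2af2 and Spry4 have no start in the table, and the Kdm5a peak held the start of its neighbour Ccdc77. The histone acetylation (19 marked), TGF-beta (22 marked) and proteasome (30 marked) lists had 0, as had every list of other cell types.

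**Figure D5:**
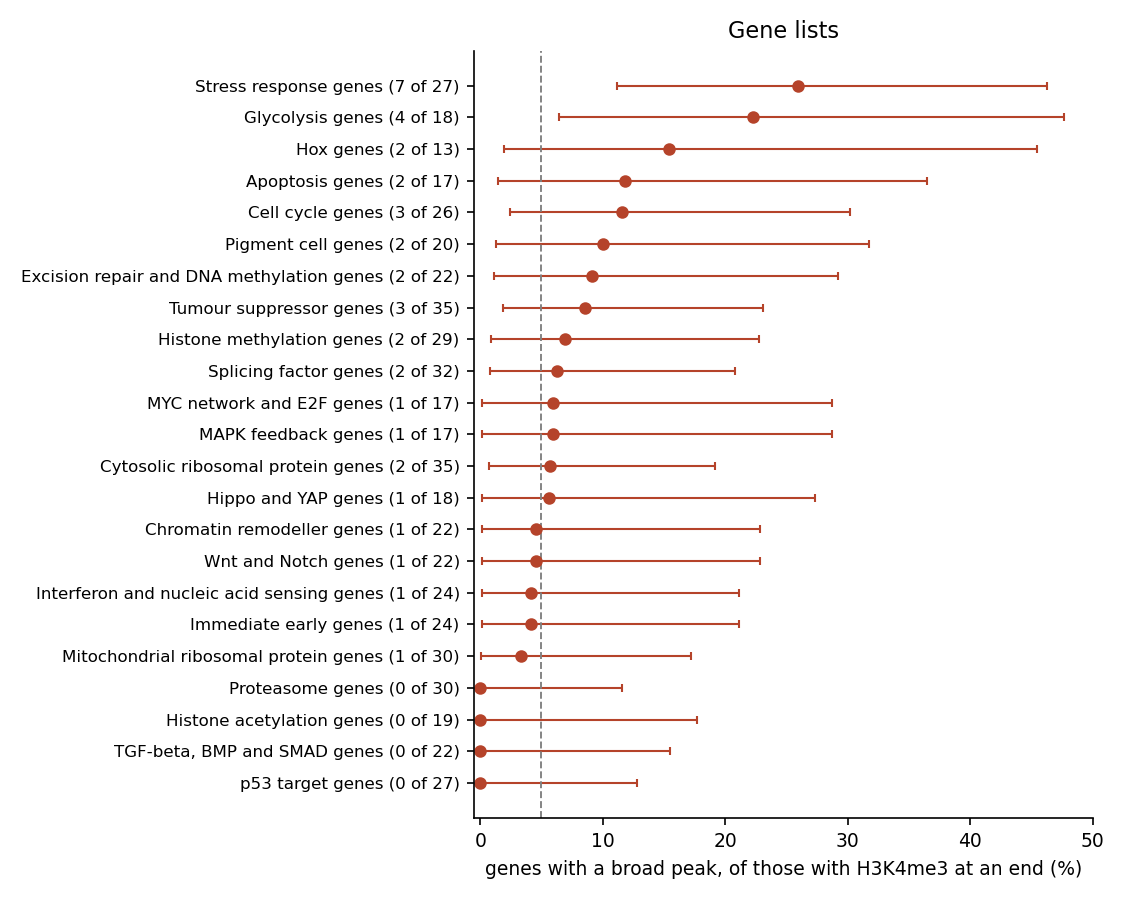
For each list with 10 or more marked genes, the point is the percentage of its genes with H3K4me3 at an end that had a broad peak, with the exact 95% binomial interval. The dashed line is the level over all marked genes, 4.91%. Stress response genes (7 of 27) and glycolysis genes (4 of 18) are at the top.

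Broad peaks depend on how the list splits a domain. Another H3K4me3 peak lay within 1 kb of 8.02% (5.55 to 11.1%) of broad peaks and 13.4% (12.5 to 14.3%) of gene-end peaks of 1 to 2 kb. The share was 52.3% of gene-end peaks under 1 kb, and 34.1% of all narrower gene-end peaks together. When peaks within 1 kb of each other were joined, 1314 gene-end regions reached 2000 bp, 947 of them made of several peaks, and 15.0% of marked genes had one. The widest was then 5082 bp, at Nrm (a nuclear membrane protein) and Ppp1r18. Sox10, Slc24a5 and Erbb3 joined Mlph and Gpnmb, 5 of 20 pigment genes (25.0%), and stress response genes were 9 of 27 (33.3%). Proteasome genes were 1 of 30 (3.33%). Glycolysis genes (8 of 18, 44.4%), cell cycle genes (11 of 26, 42.3%) and histone acetylation genes (8 of 19, 42.1%, from 0 without joining) had the highest shares among lists of 10 or more marked genes.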

How the data were processed

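H3K4me3 and p300 were measured by CUT&Tag in wild-type B16 cells, with 1 library each, grouped by title. The submitters' processing notes name mm10 as build, with deepTools, Picard 2.22.4, Bowtie2 2.2.5 and Trim Galore among the tools. The program that called peaks and any control library were not given in the sources used here. Libraries were amplified by PCR, per the labels' protocols. The deposited lists give, for each peak, positions, a score, a fold (the ratio of summit to background), −log10 p and −log10 q. The fold and −log10 q values are the authors' and were used only to describe and rank peaks within a list. The deposited score was not used. Read totals are unknown.

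Summit reads were solved as the whole number n that gives the deposited −log10 p within 0.002, as a Poisson tail over the background that the fold (n + 1 over background + 1) implies. This succeeded for 99.98% of H3K4me3 and 99.97% of p300 peaks. Smallest summits held 15 and 14 reads, so weaker sites are not seen. Genes came from RefSeq GRCm38.p6, which shares its main chromosomes with mm10, and starts and promoter sequences from its promoter table. Where no start is listed, a gene end can be a 3′ end, and a peak can belong to a neighbour. Functions were tested on simulated peaks. Analyses used Python 3.11.15, pandas 2.3.3 and SciPy 1.17.1. Scaffolds and the mitochondrial chromosome were left out.

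Members and lists were chosen with earlier results of these data known. The lists hold 31 groups, and 667 of 670 distinct symbols matched a gene. Named were the 15 widest peaks, the 10 highest and 5 lowest folds, the 10 highest p300 −log10 q values, the peak at 4 or more genes, the longest gene over 2 kb inside a peak, up to 6 genes of each list by width, the 3 peaks on each side of the limit, and Tdg, Trp53, Ep300, Cdkn1a and Mdm2. The rule also asked for peaks with 3 or more p300 peaks, of which there were none. Other names were chosen after their values were seen. Width limits, windows, starts, joining, chromosomes and thresholds were varied. A gene that the rule names is not reported here.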

Additional observations from a re-analysis of the deposited data

How the results depend on the processing

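Of 61 comparisons of a main value with an alternative, 35 stayed within the counting interval of the main value (counts within 1.5 times) and 26 did not. Changing the gene-end window to 500 bp or 2 kb, or using autosomes alone, moved none of them beyond it. A limit of 1500 bp gave 1926 broad peaks, with p300 in 44.3%, near the summit in 42.5%, a median fold of 6.58, 28.5% at 2 or more genes and 137 list genes. A limit of 3000 bp gave 22, with 81.8%, 68.2%, a fold of 4.46, a CpG ratio of 0.69 and 4 list genes. Joining peaks within 500 bp gave 741 broad regions, with 51.1%, 45.6%, 28.7% at 2 or more genes and a CpG ratio of 0.83. Joining within 1 kb gave 1314, with 46.8%, 40.2%, 25.6% and 0.85. Annotated starts alone gave 20.6% at 2 or more genes, since fewer ends were counted. In the 50% of each list with the highest −log10 q the p300 shares were 32.0% and 29.7%, since fewer p300 peaks were counted. With p300 over the summit base the share was 39.6%. Of 124 list counts, 77 were within 1.5 times. p53 target genes had 5 with a limit of 1500 bp and stress response genes 11. No paired analysis was possible because each protein had 1 library. Sites with summits under 15 reads for H3K4me3 and 14 for p300 are not listed, which limits what can be seen.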
